A study of Mus musculus with 6 samples.

Results

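Genes that mark the non-parenchymal cells of the liver were followed in whole-liver RNA of individual mice. Of the 34832 gene names on the array 37 were chosen by name, as markers of 4 cell classes, and every non-control probe bearing one of these names was taken. They were 12 genes of Kupffer cells, 11 of stellate cells, 9 of endothelial cells and 5 of bile duct cells, read by 45 probes. The livers came from C57BL6/J mice, an inbred laboratory strain, killed 2 h after an oral dose. One group of 3 mice received 250 mg/kg of a compound that the labels name only as CBZ, and the other 3 mice were given only dimethyl sulfoxide (DMSO), a solvent for many drugs. No genetic alteration is given in the labels for either group, and neither is age or sex. Each mouse gave 1 sample of Cy3-labelled RNA on 1 Agilent mouse array, so the spread within a group is the spread between livers, together with that of labelling and hybridisation.

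Hepatocytes make up most of the mass of a liver, and the other cell types line or surround its blood sinusoids and bile ducts. Kupffer cells are the macrophages resident in the sinusoids, where they clear particles, dying cells and bacterial products from the blood. Stellate cells store vitamin A and make collagen when activated, sinusoidal endothelial cells form a perforated lining with scavenger receptors, and bile duct cells (cholangiocytes) carry bile away. Because RNA of the whole organ was measured, fewer cells of a type and less RNA per cell cannot be told apart in any value given here. The comparison addresses whether the make-up of the tissue, as these markers show it, differed between livers of 1 group and between CBZ and DMSO.

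The arrays had 59305 spots apart from controls, of which 42.6% to 45.8% were well above background, and no spot was saturated. The 75th percentile of the processed intensity lay between 158 and 191 units, and a level below is a probe's processed intensity divided by that percentile of its own array. Levels serve to compare mice for 1 probe and not to rank genes. A probe was tested if either group had it well above background in all 3 mice. Of the 22348 probes of 17053 genes tested, 41 belonged to 34 of the markers. Of the 3 markers left out, Epcam, an adhesion protein of bile duct epithelium, was not well above background on any array. Sox9, a transcription factor of bile duct cells, was well above background on 1 of 3 CBZ arrays and 1 of 3 DMSO arrays, and Des, the muscle filament desmin found in stellate cells, on 2 of 3 CBZ arrays and 1 of 3 DMSO arrays. All 6 arrays lay on 1 slide and were scanned on 1 day. Across probes, arrays correlated with each other at r of 0.988 to 0.993, but DMSO replicate 1 stood apart from the other mice in the Kupffer genes, and the spread and class difference of the Kupffer genes are given with and without it.

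Kupffer cell genes differed more between the DMSO mice than between the CBZ mice. DMSO replicate 1 had the highest level of the 3 DMSO mice for 12 of 12 genes, an order found for 38.7% of all genes tested. DMSO replicate 3 had the lowest for 11 of 12 genes, against 45% of all genes tested. With arrays scaled to their median both counts were 12 of 12, but 76.0% of all genes then had DMSO replicate 1 highest and 72.4% had DMSO replicate 3 lowest. Averaged over the 12 genes, and relative to each gene's mean over the 6 mice, the log2 level was 0.19, 0.00043 and -0.05 in CBZ replicates 1, 2 and 3, against 0.67, -0.27 and -0.53 in DMSO replicates 1, 2 and 3. In this mean the highest and lowest DMSO mice were thus 1.20 log2 units apart, a 2.29-fold range. The CBZ mice lay between them with a range of 0.24 log2 units. For single Kupffer genes the median DMSO range was 0.97 log2 units, or 1.96-fold. Without DMSO replicate 1 the range of the class mean over the other DMSO mice was 0.26 log2 units, close to that of the CBZ mice.

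**Figure D1:**
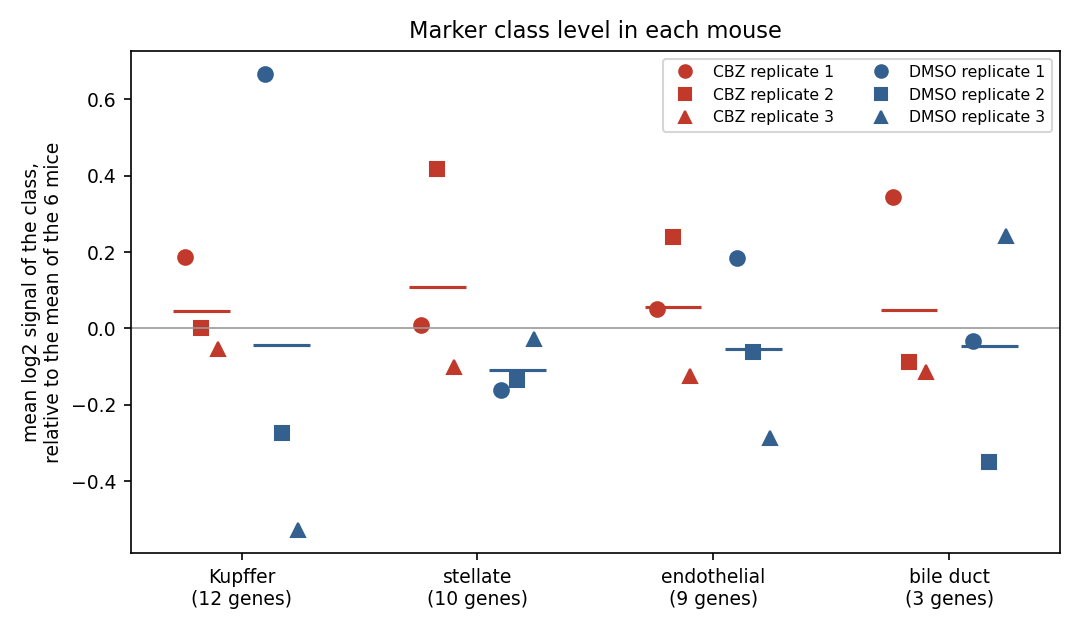
Mean log2 signal of each marker class in each mouse, relative to the mean of the 6 mice, with CBZ mice in red and DMSO mice in blue, symbols for the replicate number and a bar for each group's mean. The Kupffer values of the DMSO mice span 1.20 log2 units and enclose those of all 3 CBZ mice, while the stellate values of the DMSO mice span 0.13.

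Scavenger and recognition receptors of the Kupffer cell surface showed the order clearly. Marco, a scavenger receptor that binds bacteria, had levels of 14.4, 10.2 and 10.66 in CBZ replicates 1 to 3, against 44.4, 7.97 and 6.83 in DMSO replicates 1 to 3. The lowest and highest DMSO mice were 6.50-fold apart, and all 3 CBZ mice lay between them, while DMSO replicates 2 and 3 alone were 1.17-fold apart. Clec4f, a lectin found almost only on rodent Kupffer cells, had levels of 44.2, 42.3 and 38.4 in the CBZ mice, against 48.8, 33.7 and 29.0 in the DMSO mice. Vsig4, a receptor for complement fragments, had levels of 21.9, 19.6 and 17.8 in the CBZ mice, against 29.1, 15.6 and 14.9 in the DMSO mice. In both genes DMSO replicate 1 was above, and DMSO replicates 2 and 3 below, every CBZ mouse. Timd4, a receptor for the lipid exposed on dying cells, had levels of 0.634, 0.521 and 0.615 in the CBZ mice, against 0.770, 0.419 and 0.426 in the DMSO mice. It was the only Kupffer gene for which DMSO replicate 2 and not DMSO replicate 3 was lowest.

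Further receptors of macrophages followed the same order. Emr1, now named Adgre1, encodes an adhesion receptor long used to mark mouse macrophages, and had levels of 3.17, 2.44 and 2.28 in the CBZ mice, against 5.18, 2.10 and 1.86 in the DMSO mice. Its second probe, whose start lies 2518 bp away, put DMSO replicate 1 highest and DMSO replicate 3 lowest of the 6 mice again, with levels of 2.23, 1.61 and 1.72 in the CBZ mice, against 3.62, 1.79 and 1.21 in the DMSO mice. Csf1r, the receptor for the growth factor that macrophages need to survive, had levels of 56.4, 46.8 and 43.8 in the CBZ mice, against 73.2, 40.3 and 38.3 in the DMSO mice. All 3 probes of Csf1r put DMSO replicate 1 highest of the 6 mice. On the dimmest of them the CBZ levels of 1.55, 1.02 and 1.12 were not enclosed by the DMSO levels of 1.75, 1.34 and 1.14.

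Secreted proteins of Kupffer cells varied in parallel with the receptors. Cd5l, a secreted scavenger protein that keeps macrophages alive, had levels of 51.2, 42.5 and 42.8 in the CBZ mice, against 73.7, 38.2 and 29.5 in the DMSO mice. Lyz2, the lysozyme of myeloid cells, had levels of 0.836, 0.903 and 0.744 in the CBZ mice, against 1.89, 0.907 and 0.404 in the DMSO mice, a 4.68-fold range among the DMSO mice. By the brightest probe of each gene, Lyz2 was the only Kupffer gene for which DMSO replicate 2 was not below all 3 CBZ mice. On the dimmer probes of Emr1 and Csf1r DMSO replicate 2 was above CBZ replicates 2 and 3 as well. C1qa, C1qb and C1qc encode the 3 chains of complement C1q, which starts the classical complement pathway. C1qa had levels of 13.8, 12.4 and 11.6 in the CBZ mice, against 16.3, 9.51 and 7.82 in the DMSO mice. C1qb had 11.3, 10.2 and 9.30 in the CBZ mice, against 12.2, 8.001 and 6.22 in the DMSO mice. C1qc, read by 10 spots of 1 probe, had 11.4, 10.97 and 10.1 in the CBZ mice, against 13.3, 8.16 and 7.99 in the DMSO mice. For each of the 3 chains the CBZ mice fell inside the DMSO range, below DMSO replicate 1 and above DMSO replicates 2 and 3.

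Cd68, a glycoprotein of macrophage lysosomes, was the exception. Its levels were 6.49, 6.25 and 6.89 in the CBZ mice, against 6.32, 5.38 and 4.95 in the DMSO mice, so that CBZ replicates 1 and 3 were above every DMSO mouse. Its second probe, which starts 1204 bp from the first, was not well above background on any array. Cd68 had the narrowest DMSO range of the 12 Kupffer genes, at 0.35 log2 units.

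**Figure D2:**
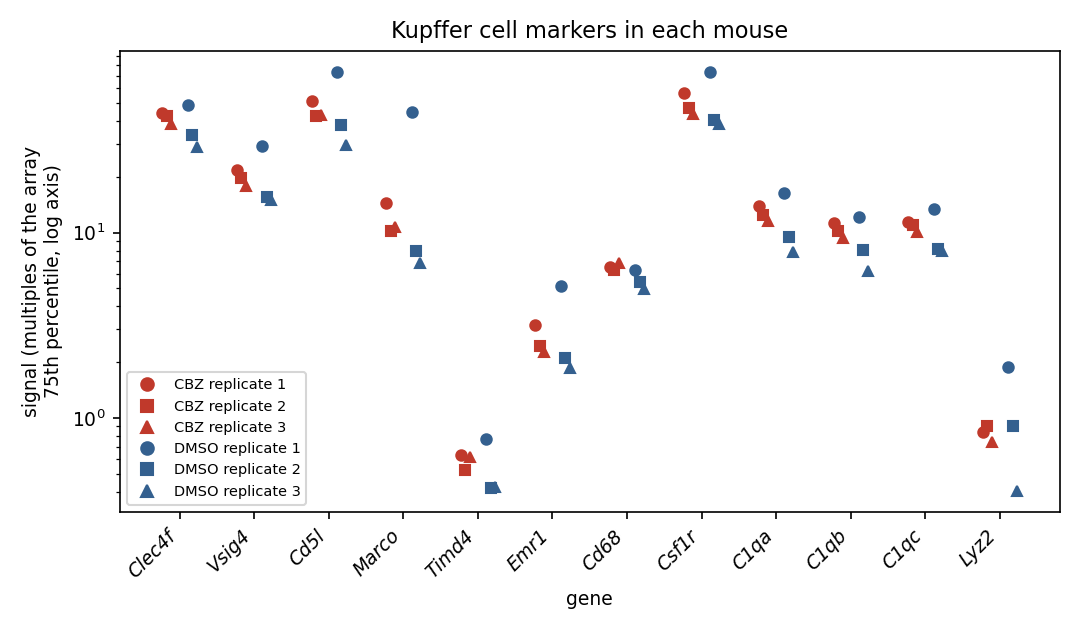
Level of each Kupffer cell gene in each mouse, in multiples of the array's 75th percentile on a log axis, with CBZ mice in red to the left of DMSO mice in blue and symbols for the replicate number. The DMSO replicate 1 circle is the highest point of every gene except Cd68, and the gap is widest for Marco, where DMSO replicates 1, 2 and 3 had 44.4, 7.97 and 6.83.

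The 60-base probes behind the widest and the most parallel of these values are shown so that it can be seen which sequence was read. They are written 5′ to 3′ in the sense of the transcript, with positions of the array design on mm9, all on the minus strand. The Marco probe is placed at chr1:122371115-122371134, an interval that covers 20 of its 60 bases, and that of Lyz2 at chr10:116719175-116719234. The Clec4f probe lies at chr6:83595281-83595339. The C1qa probe lies at chr4:136452409-136452468 and the C1qb probe at chr4:136436578-136436637, and the 3 C1q probes together fall within 15891 bp. Which exon each probe covers was not analysed here.
Marco: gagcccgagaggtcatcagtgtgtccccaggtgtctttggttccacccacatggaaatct
Lyz2: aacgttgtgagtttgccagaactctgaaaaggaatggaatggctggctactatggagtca
Clec4f: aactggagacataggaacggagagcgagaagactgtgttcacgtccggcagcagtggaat
C1qa: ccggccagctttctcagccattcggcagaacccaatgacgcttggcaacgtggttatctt
C1qb: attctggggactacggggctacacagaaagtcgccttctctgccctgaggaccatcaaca

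Read against all genes, the Kupffer order was frequent in its class. DMSO replicate 1 was highest and DMSO replicate 3 lowest of the DMSO mice for 11 of 12 Kupffer genes, against 27.1% of the 17053 genes. DMSO replicate 1 was highest of all 6 mice for 11 of 12, against 19.3% of all genes, and DMSO replicate 3 lowest of all 6 for 11 of 12, against 21.5%. All 3 CBZ mice lay inside the DMSO range for 11 of 12 Kupffer genes, against 20% of all genes. That count in part repeats those before it. Where DMSO replicate 1 is highest and DMSO replicate 3 lowest of all 6 mice, the CBZ mice lie inside by definition. The DMSO range was over 1 log2 unit for 5 of 12, which were Cd5l, Marco, Emr1, C1qa and Lyz2, against 3.31% of all genes. It was larger than the CBZ range for 12 of 12, against 50.1%. The median SD among the DMSO mice was 0.53 log2 units over the Kupffer genes and 0.17 over all genes tested. These 3 measures rested on DMSO replicate 1. Without it the DMSO range was over 1 log2 unit for 1 of 12, which was Lyz2, against 1.30% of all genes, and larger than the CBZ range for 5 of 12, against 31.1%. The median SD was then 0.14 log2 units over the Kupffer genes and 0.14 over all genes. The 12 genes share their mice and arrays and are not independent readings, and no test was made of these counts or of the difference between classes.

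Other macrophage genes, listed separately, shared the high DMSO mouse more often than the low one. Of 21 such genes 17 were measured, and DMSO replicate 1 was the highest DMSO mouse for 16 of them, while the lowest was DMSO replicate 3 for 10 and DMSO replicate 2 for 7. Their mean log2 levels were 0.17, 0.02 and 0.05 in the CBZ mice, against 0.33, -0.24 and -0.32 in the DMSO mice. Folr2, a folate receptor of resident macrophages, had levels of 4.97, 4.14 and 4.75 in the CBZ mice, against 6.69, 3.94 and 3.15 in the DMSO mice. Tyrobp, a signalling adaptor of myeloid receptors, had 12.0, 9.70 and 9.68 in the CBZ mice, against 14.4, 7.77 and 7.04 in the DMSO mice. Cd14, a co-receptor for bacterial lipopolysaccharide, departed from this order. Its levels were 2.23, 2.26 and 5.02 in the CBZ mice, against 2.62, 1.54 and 1.56 in the DMSO mice, so that CBZ replicate 3 was above every DMSO mouse, with a log2 difference of 0.67 ± 0.34 and an adjusted p of 0.617 by limma. The summed level of the list ran from 132 to 148 in the CBZ mice and from 109 to 175 in the DMSO mice. Hepatocyte genes did not share this spread: over 23 measured of 25, among them the liver's main secreted proteins, the DMSO mice lay within 0.10 log2 units of each other.

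The promoters of 3 Kupffer genes that varied in parallel are printed because many macrophage genes are bound by PU.1, a transcription factor that myeloid cells require. They come from RefSeq on GRCm38.p6, run from 250 bases before to 50 after the start of the gene, and are given on the strand of the gene, the minus strand. The 6-base core of the PU.1 site, GAGGAA, or TTCCTC where it lies on the other strand, is in capitals. The Marco promoter lies at chr1:120504975-120505274, that of C1qb at chr4:136886151-136886450 and that of C1qc at chr4:136892865-136893164. Of the 37 markers 25 matched the promoter table, with 27 promoters.
Marco: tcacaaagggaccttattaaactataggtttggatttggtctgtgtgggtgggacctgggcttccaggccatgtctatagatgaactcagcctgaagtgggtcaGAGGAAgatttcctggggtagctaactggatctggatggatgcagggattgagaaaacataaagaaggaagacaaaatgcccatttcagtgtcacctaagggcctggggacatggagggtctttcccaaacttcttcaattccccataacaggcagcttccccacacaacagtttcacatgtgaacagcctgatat
C1qb: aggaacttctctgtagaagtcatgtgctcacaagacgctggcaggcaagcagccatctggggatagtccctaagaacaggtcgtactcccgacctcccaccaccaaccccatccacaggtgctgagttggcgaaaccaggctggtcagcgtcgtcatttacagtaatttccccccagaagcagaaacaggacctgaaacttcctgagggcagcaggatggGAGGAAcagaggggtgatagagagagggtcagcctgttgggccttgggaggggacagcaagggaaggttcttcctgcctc
C1qc: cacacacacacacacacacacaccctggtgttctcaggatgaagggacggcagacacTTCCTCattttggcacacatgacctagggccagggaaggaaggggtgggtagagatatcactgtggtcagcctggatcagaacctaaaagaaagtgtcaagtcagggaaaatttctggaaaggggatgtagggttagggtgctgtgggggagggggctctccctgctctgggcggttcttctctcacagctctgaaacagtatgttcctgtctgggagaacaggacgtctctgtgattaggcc

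These 6 letters, on either strand, were found in 6 of the 9 Kupffer promoters in the table, in 13 of the 27 promoters of all markers, and in 28.3% of the 32851 promoters in the table. Each of the 3 promoters shown held 1 copy, while those of Clec4f, Lyz2 and Timd4 held no copy. Whether these letters go with the spread of a gene between mice was not tested. A run of so few bases is common by itself, and its presence is a description and not a measured binding site.

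In CBZ against DMSO no marker passed the test, with limma and Benjamini-Hochberg adjustment over all probes kept. The count was 0 of 34 markers at an adjusted p under 0.05, against 0.0528% of all genes in either direction. These were 8 genes higher (0.0469%) and 1 lower (0.00586%) in CBZ. The lowest adjusted p of any marker was 0.444. At an unadjusted p under 0.05 there were 2 markers, Hgf and Krt7, or 5.88% of them, against 8.97% of all genes. Each passed the filter only through the group in which it was higher, so nothing is read from this count. No marker had groups that did not overlap, against 12.9% of all genes, although with arrays scaled to their median those of Krt7 did not. The fitted difference was above 0 for 25 of the 34 markers, against 49.1% of all genes, and for 17 of the 34, against 29.4% of all genes, with arrays scaled to their median. The median log2 difference was 0.11 over the markers and -0.0044 over all genes. A p that misses the threshold does not show that the levels were alike.

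**Figure D3:**
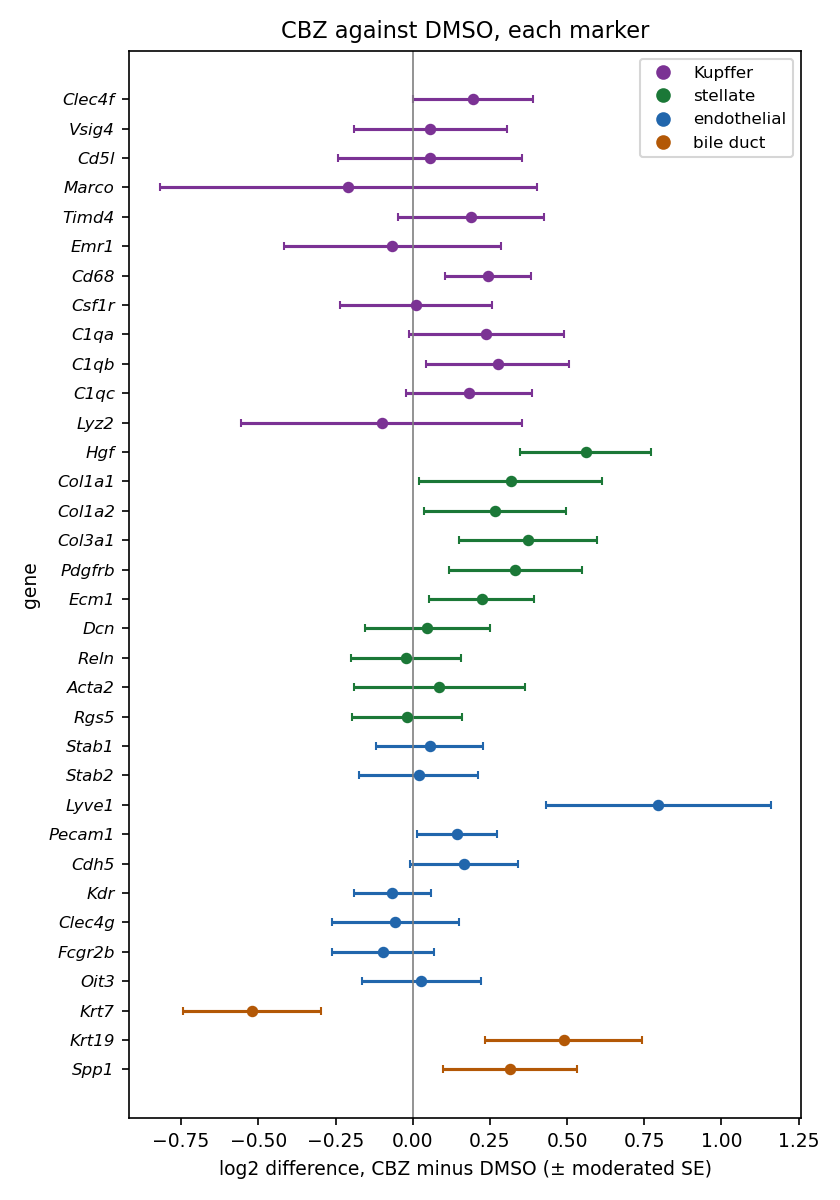
Fitted log2 difference, CBZ minus DMSO, of each measured marker, with bars of ± the moderated standard error and colours for the 4 cell classes. Lyve1 lies farthest above 0 at 0.80, and no marker passed the test. The point of Krt7 is not an exact value, since no CBZ array had it well above background.

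Over the Kupffer class the CBZ minus DMSO difference was 0.09 log2 units, and -0.01 with arrays scaled to their median, with group means of 0.04 ± 0.13 in CBZ and -0.04 ± 0.63 in DMSO (SD, n = 3 each). The difference was far smaller than the spread between the DMSO mice. Single Kupffer genes ran from -0.21 ± 0.61 for Marco to 0.28 ± 0.23 for C1qb (log2 difference ± moderated standard error). The sign of the class difference rested on single DMSO mice, and none of the 12 genes was called with any mouse left out. Without DMSO replicate 1 the class difference was 0.45 and the fitted difference was above 0 for 12 of 12 genes. By limma 8 of 12 then had an unadjusted p under 0.05, against 8.34% of all genes. That mouse was the highest DMSO mouse for all 12 genes, so leaving it out raises every difference. The genes also share their arrays, and nothing is read from these counts. With any other mouse left out 0 of 12 had such a p. Without DMSO replicate 2 the class difference was -0.02, and without DMSO replicate 3 it was -0.15. All 3 CBZ mice were above DMSO replicates 2 and 3 for 11 of 12 Kupffer genes (12.6% of all genes), above DMSO replicates 1 and 3 for 0 of 12 (8.13%), and above DMSO replicates 1 and 2 for 0 of 12 (12.5%). DMSO replicate 1 was highest of all 6 mice for 11 of 12 genes, which by itself sets both counts of 0 for those genes.

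Averaged over the stellate cell genes the DMSO mice lay close together, and CBZ replicate 2 stood apart. The class mean spanned 0.13 log2 units over the DMSO mice, or 0.31 with arrays scaled to their median, while single stellate genes spread among the DMSO mice as all genes did, with a median SD of 0.17 log2 units for each. The class level was 0.0087, 0.42 and -0.10 in the CBZ mice, against -0.16, -0.14 and -0.03 in the DMSO mice, and the class difference was 0.22 log2 units. CBZ replicate 2 was the highest of all 6 mice for 8 of 10 measured genes, against 22.3% of all genes. It was also highest for 14 of 23 hepatocyte genes and for 12 of 17 other stellate and fibroblast genes. The summed level of that second list, 17 measured of 20, ran from 204 to 287 in the CBZ mice and from 170 to 201 in the DMSO mice. A single gene was the largest part of it, at 116 to 178 in the CBZ mice and 93.9 to 119 in the DMSO mice. The sum thus follows that gene more than the list. The high hepatocyte genes of CBZ replicate 2 stand beside the stellate values here, and their part in them was not tested.

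Fibrillar collagens were among the genes high in CBZ replicate 2. Col3a1 had levels of 7.17, 10.6 and 5.47 in the CBZ mice, against 5.65, 6.01 and 5.65 in the DMSO mice. Col1a1 had 2.82, 4.16 and 1.63 in the CBZ mice, against 2.14, 1.92 and 2.41 in the DMSO mice, and Col1a2 had 14.2, 22.6 and 11.6 in the CBZ mice, against 11.8, 13.7 and 13.4 in the DMSO mice. In all 3 collagen genes CBZ replicate 2 was highest and CBZ replicate 3 lowest of the 6 mice, so the CBZ mice enclosed the DMSO mice. Their log2 differences were 0.37 ± 0.22, 0.32 ± 0.30 and 0.27 ± 0.23 in that order, with adjusted p of 0.723, 0.897 and 0.876 by limma. Without CBZ replicate 2 the class difference of the stellate genes was 0.062.

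Hgf, the hepatocyte growth factor that stellate cells secrete, had the lowest unadjusted p of the markers, 0.028. Its levels were 0.539, 0.573 and 0.502 in the CBZ mice, against 0.352, 0.502 and 0.273 in the DMSO mice. DMSO replicate 2 reached the lowest CBZ mouse to the third digit, and 2 of the 3 DMSO arrays had the probe well above background, so Hgf entered the test through the CBZ group. The log2 difference was 0.56 ± 0.21, with an adjusted p of 0.444 by limma. Pdgfrb, a growth factor receptor of stellate cells and pericytes, had levels of 0.785, 0.784 and 0.566 in the CBZ mice, against 0.607, 0.419 and 0.689 in the DMSO mice.

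CBZ replicate 2 was also the highest of the 6 mice for Ecm1, Dcn, Reln and Rgs5 among the matrix and pericyte genes, but not for Acta2. Ecm1, a matrix protein, had levels of 100.8, 148.5 and 128.2 in the CBZ mice, against 101.8, 99.0 and 119.7 in the DMSO mice, and its second probe gave a log2 difference of 0.19 where the first gave 0.22. Dcn, the proteoglycan decorin, had 76.3, 135.03 and 106.96 in the CBZ mice, against 100.6, 93.2 and 106.3 in the DMSO mice. Acta2, the smooth muscle actin of activated stellate cells and of vessel walls, had 1.23, 1.28 and 1.53 in the CBZ mice, against 0.943, 1.04 and 2.07 in the DMSO mice. DMSO replicate 3, the lowest mouse for most Kupffer genes, was the highest of the 6 for Acta2. Reln, the secreted protein reelin, had 0.391, 0.462 and 0.306 in the CBZ mice, against 0.345, 0.435 and 0.386 in the DMSO mice. Rgs5, a regulator of signalling in pericytes, had 0.944, 1.35 and 1.04 in the CBZ mice, against 1.28, 1.13 and 0.950 in the DMSO mice. Both had log2 differences of -0.02 ± 0.18, with overlapping groups. Des had levels of 0.303, 0.379 and 0.291 in the CBZ mice, against 0.253, 0.221 and 0.272 in the DMSO mice, and was not tested because no group had it well above background on all its arrays.

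**Figure D4:**
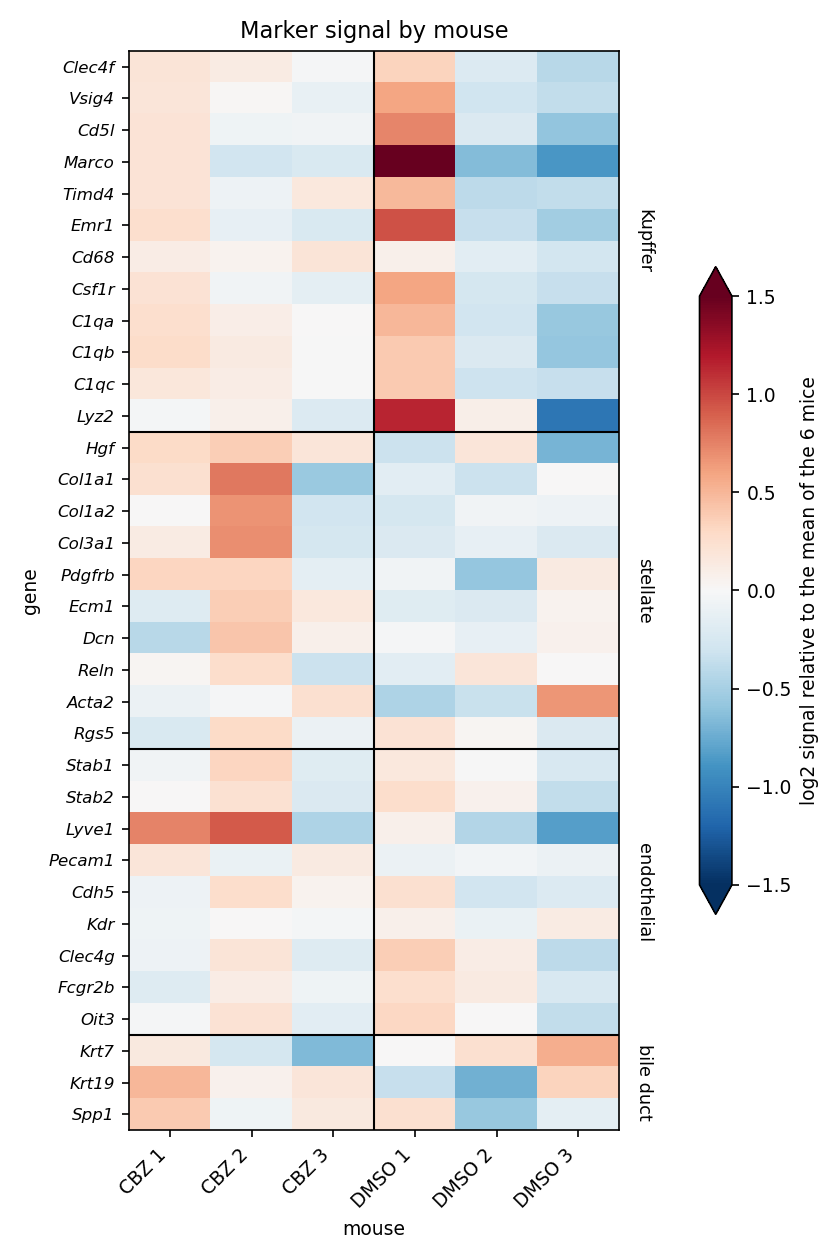
Log2 signal of each measured marker in each mouse, relative to that gene's mean over the 6 mice, with the 3 CBZ mice left of the 3 DMSO mice and genes grouped by cell class. Red in the DMSO replicate 1 column runs through the Kupffer rows and most endothelial rows, and red in the CBZ replicate 2 column runs through the collagens.

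In the mean of the endothelial genes the DMSO mice had the same order as in the Kupffer genes, over a narrower range. The class level was 0.05, 0.24 and -0.13 in the CBZ mice, against 0.18, -0.06 and -0.29 in the DMSO mice, a DMSO range of 0.47 log2 units. That range was 0.91 with arrays scaled to their median and 0.23 without DMSO replicate 1. DMSO replicate 1 was the highest DMSO mouse for 7 of 9 genes, and for 12 of the 18 measured genes of the further list below, against 38.7% of all genes. Among the CBZ mice replicate 2 was highest for 8 of 9, against 47% of all genes, as it was for 21 of 23 hepatocyte genes. The class difference was 0.11 log2 units, smaller than the range within either group, and 0.01 with arrays scaled to their median. The median difference over the 9 genes was 0.03, or -0.07 with that scaling, and over a further list of endothelial genes, 18 measured of 22, the class difference was -0.04.

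The scavenger receptors of the sinusoidal lining showed this order. Stab2, which removes hyaluronan from the blood, had levels of 18.5, 21.5 and 15.8 in the CBZ mice, against 22.1, 19.2 and 14.2 in the DMSO mice, and Stab1, its relative, had 8.59, 11.1 and 7.84 in the CBZ mice, against 9.93, 8.87 and 7.56 in the DMSO mice. Clec4g, a sinusoidal lectin, had 43.9, 52.8 and 40.4 in the CBZ mice, against 59.8, 50.1 and 35.2 in the DMSO mice. For Stab2 and Clec4g DMSO replicates 1 and 3 enclosed all 3 CBZ mice, and for Stab1 CBZ replicate 2 was the highest mouse. The other 2 probes of Stab2 did not keep the order and gave log2 differences of -0.15 and 0.28, against 0.02 on the brightest probe. Fcgr2b, an antibody receptor, had 2.96, 3.66 and 3.23 in the CBZ mice, against 4.03, 3.70 and 2.87 in the DMSO mice, and Oit3, a secreted protein found in this lining, had 4.85, 5.74 and 4.41 in the CBZ mice, against 6.12, 4.96 and 3.82 in the DMSO mice. Both put DMSO replicate 1 highest and DMSO replicate 3 lowest of the 6 mice.

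Lyve1, a hyaluronan receptor of lymphatic and sinusoidal endothelium, had the largest fitted difference of the markers. Its levels were 3.33, 3.76 and 1.44 in the CBZ mice, against 2.09, 1.47 and 1.12 in the DMSO mice. CBZ replicates 1 and 2 were above every DMSO mouse, and CBZ replicate 3 was below 2 of them. The log2 difference was 0.80 ± 0.36, with an adjusted p of 0.563 by limma. Markers of endothelium in general differed less: Pecam1, a junction protein, had levels of 0.708, 0.584 and 0.689 in the CBZ mice, against 0.589, 0.608 and 0.591 in the DMSO mice. Cdh5, the cadherin of endothelial junctions, had 1.28, 1.61 and 1.39 in the CBZ mice, against 1.58, 1.09 and 1.17 in the DMSO mice. Kdr, a receptor for vascular growth factor, had a log2 difference of -0.07 ± 0.13 on its brighter probe and -0.11 ± 0.17 on the other, and its groups overlapped on both.

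Of the 5 bile duct markers 3 were measured, of which Krt19 and Spp1 were well above background on all 6 arrays and Krt7 was dim. Krt7, a keratin of bile duct epithelium, had levels of 0.293, 0.221 and 0.167 in the CBZ mice, against 0.265, 0.313 and 0.385 in the DMSO mice. No CBZ array and all 3 DMSO arrays had it well above background, so it entered the test only through the group in which it was higher. With the CBZ signals raised to the detection floor its mean was 1.28-fold lower in CBZ. This bound takes no account of the spread between mice, and CBZ replicate 1 lay above DMSO replicate 1. Under the other processings and fits, all mice kept, the log2 difference ran from -0.63 to -0.11. The fitted log2 difference was -0.52 ± 0.22, with an unadjusted p of 0.046 and an adjusted p of 0.523 by limma. Krt19, a second keratin of these cells, differed in the opposite direction, with levels of 1.02, 0.758 and 0.822 in the CBZ mice, against 0.571, 0.441 and 0.913 in the DMSO mice, a log2 difference of 0.49 ± 0.25 and an adjusted p of 0.638. CBZ replicate 1 was the highest and DMSO replicate 2 the lowest mouse for Krt19. Spp1, the secreted protein osteopontin, had levels of 2.77, 2.01 and 2.33 in the CBZ mice, against 2.49, 1.42 and 1.90 in the DMSO mice. The class difference of the 3 genes was 0.09 log2 units, and -0.0051 with arrays scaled to their median.

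A further list of bile duct genes, 12 measured of 16, had mostly positive differences, like Krt19 and unlike Krt7. The fitted difference was above 0 for 10 of 12. For 4 of 12 all 3 CBZ mice were above all 3 DMSO mice, where groups did not overlap, in either direction, for 12.9% of all genes. With arrays scaled to their median these counts were 8 of 12 and 0 of 12. Anxa13, among the 4, was well above background on 3 CBZ arrays and 1 DMSO array. It entered the test only through the group in which it was higher, so nothing is read from the count of 4. None of the 12 passed the test on the values as reported. Their mean log2 levels were 0.20, -0.04 and 0.10 in the CBZ mice, against -0.19, -0.16 and 0.09 in the DMSO mice, with summed levels of 256 to 288 in CBZ and 206 to 233 in DMSO. Krt18, a keratin that hepatocytes make too, was the largest part of these sums, so they follow it more than the list. Its levels were 156.6, 172.1 and 164.1 in the CBZ mice, against 122.5, 107.3 and 135.2 in the DMSO mice. The log2 difference was 0.44 ± 0.14, with an adjusted p of 0.339 by limma.

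Both keratin probes, whose differences have opposite signs, are printed here with their mm9 positions, chr15:101253718-101253777 on the plus strand for Krt7 and chr11:100002392-100002451 on the minus strand for Krt19.
Krt7: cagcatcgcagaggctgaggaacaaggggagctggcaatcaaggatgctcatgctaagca
Krt19: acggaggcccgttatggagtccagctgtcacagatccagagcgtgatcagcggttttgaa

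Blood cells retained in the livers are a further source of RNA. DMSO replicate 1 was the highest DMSO mouse for 1 of 10 erythroid, 2 of 7 neutrophil and 7 of 11 lymphocyte genes, against 38.7% of all genes tested. Among the neutrophil genes DMSO replicates 1, 2 and 3 were highest for 2, 3 and 2 of 7. Of the erythroid genes DMSO replicate 2 was highest for 8 of 10. DMSO replicate 3 was lowest of the DMSO mice for 5 of 7 neutrophil, 7 of 10 erythroid and 4 of 11 lymphocyte genes. Over all genes tested that share was 45%. Over 7 measured of 14 neutrophil genes the mean log2 level was 0.13, 0.03 and -0.0076 in the CBZ mice, against 0.13, 0.31 and -0.59 in the DMSO mice, with summed levels of 97.7 to 101 in CBZ and 93.5 to 111 in DMSO. S100a9, a calcium-binding protein of neutrophils, had levels of 1.66, 1.90 and 1.84 in the CBZ mice, against 2.18, 3.15 and 0.303 in the DMSO mice. Over 10 measured of 13 erythroid genes, which encode globins and other red cell proteins, the mean log2 level was 0.20, -0.34 and -0.10 in the CBZ mice, against -0.06, 0.41 and -0.11 in the DMSO mice, with summed levels of 829 to 1156 in CBZ and 880 to 1408 in DMSO. Over 11 measured of 20 lymphocyte genes it was 0.23, 0.04 and 0.04 in the CBZ mice, against -0.0038, -0.19 and -0.12 in the DMSO mice, with summed levels of 21.3 to 26.3 in CBZ and 19.6 to 21.8 in DMSO. The part of retained blood in the marker values was not tested.

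**Figure D5:**
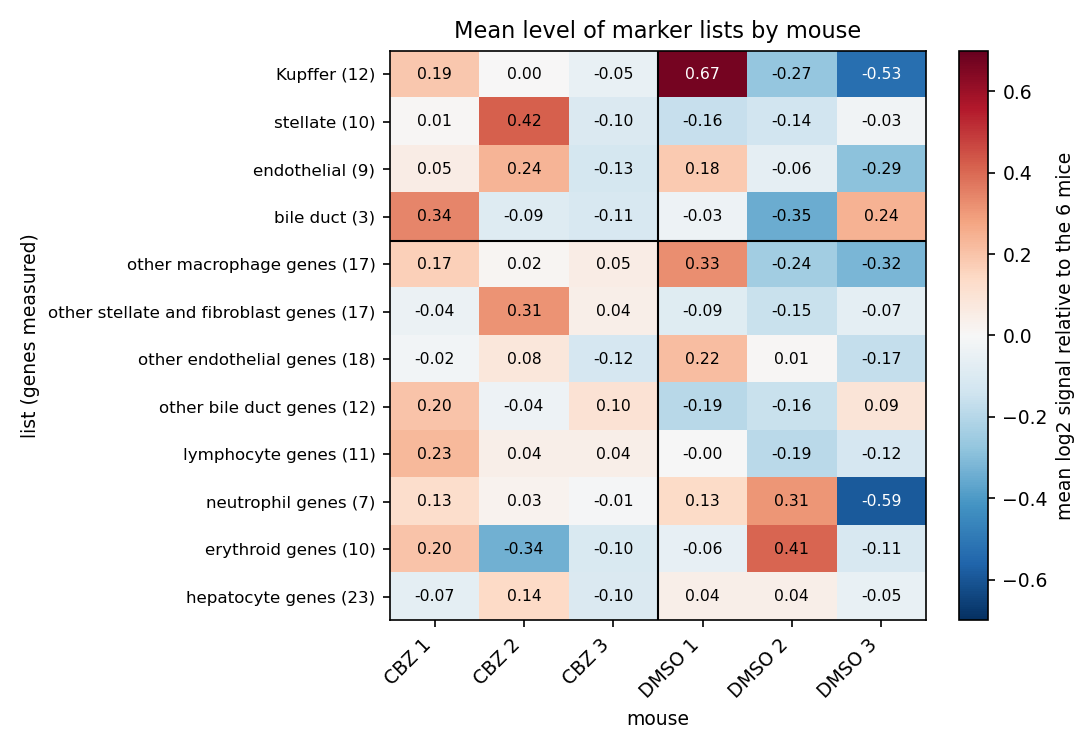
Mean log2 level of each marker class and of 8 further gene lists in each mouse, relative to the mean of the 6 mice, with the number of genes measured in brackets, the 3 CBZ mice left of the 3 DMSO mice, and the marker classes above the line. The Kupffer and other macrophage rows share their order over the DMSO mice with both endothelial rows. The hepatocyte row has that order only narrowly, with DMSO replicates 1 and 2 at 0.043 and 0.040. DMSO replicate 1 was the highest DMSO mouse for 8 of 23 hepatocyte genes, against 38.7% of all genes, and DMSO replicate 2 for 11. DMSO replicate 3 was lowest for 16 of 23, against 45% of all genes. The hepatocyte row stays within 0.14 of 0 in every mouse.

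Position on the slide was the one batch that could be examined. CBZ replicate 1 and the 3 DMSO mice lay in row 1 of the slide and CBZ replicates 2 and 3 in row 2, so only row 1 held both groups. With the row as a covariate, which is the same as setting CBZ replicate 1 against the DMSO mice within row 1, the class differences were 0.23 for Kupffer, 0.12 for stellate, 0.11 for endothelial and 0.39 for bile duct genes, and no marker was called. All 3 DMSO mice lay in row 1, so their spread is not one between rows.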

How the data were processed

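Per the labels' protocols, RNA of whole liver was amplified with Cy3 dye. Per the file headers, scans were read by the authors in Agilent Feature Extraction 10.7.3.1 (protocol GE1_107_Sep09), and the deposited scanner files give each spot's intensity, background-subtracted and detrended within the array. The deposited table of the authors' values is the ratio of that intensity to the array's median, as dividing the scanner values by it gives the table back. It was used as an alternative, and its scale is linear, with no direction.

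Here the log2 of the processed intensity was set relative to each array's 75th percentile over 59305 non-control spots. Outlier-flagged spots (114 to 126 per array) were left out, which left 23 of 55681 probes unusable on some array, and repeat spots were averaged on the log2 scale. Probes were kept where all 3 arrays of a group had them well above background, and a gene was represented by its probe of highest mean signal. A bound sets the group above background against whichever is higher, array by array, of the dim probe's signal and the lowest signal among probes above background. CBZ and DMSO were compared in R 4.3.3 with limma 3.58.1 (two-sided, lmFit then eBayes), adjusted by Benjamini-Hochberg over 22348 probes, with a threshold of 0.05. The fit was tested on simulated data. All markers are named, and other genes only from the up to 3 of each list with the smallest p and the up to 3 with the largest DMSO range. The markers, lists and rules were chosen with earlier results of these data known. Nothing in the labels says how far the mice were handled apart, and precision is limited by how few arrays there are.

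Groups and replicate numbers came from the labels. Alternatives were normexp (offset 50), median and quantile scaling, other filters, the authors' table, an intensity trend with robust eBayes, a replicate block, the slide row, each mouse left out, the mean of a gene's probes, and an adjusted p under 0.10. The spread counts without DMSO replicate 1 were added after seeing the data.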

Additional observations from a re-analysis of the deposited data

How the results depend on the processing

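No marker was called under any alternative run, an adjusted p under 0.10 included, and the lowest adjusted p that limma gave a marker in any of them was 0.238. Of 542 repeated marker differences 62 changed sign, in 18 genes, and the cause was not tested apart from the median-scaling shift below. With normexp these were Csf1r (-0.0017), Dcn (-0.021) and Oit3 (-0.0030). Median scaling shifts every log2 difference by the same -0.0995 and so moved the median difference of all probes to -0.11. By that shift it gave -0.042 for Vsig4, -0.044 for Cd5l, -0.089 for Csf1r, -0.052 for Dcn, -0.014 for Acta2, -0.044 for Stab1, -0.081 for Stab2 and -0.071 for Oit3. The authors' table gave the same values apart from -0.010 for Acta2. With the slide row they were 0.10 for Marco, 0.22 for Emr1, -0.078 for Ecm1, -0.39 for Dcn, 0.016 for Reln, -0.041 for Acta2, -0.024 for Stab1 and -0.0065 for Oit3, and the mean of its probes gave Csf1r -0.077. Leaving out each mouse gave Vsig4 -0.12 to 0.37, Cd5l -0.23 to 0.43, Marco -0.70 to 0.66, Emr1 -0.34 to 0.40, Csf1r -0.16 to 0.31, Lyz2 -0.67 to 0.45, Col1a1 -0.00027 to 0.67, Col1a2 -0.0065 to 0.47, Dcn -0.15 to 0.27, Reln -0.16 to 0.14, Acta2 -0.13 to 0.44, Rgs5 -0.17 to 0.092, Stab1 -0.090 to 0.16, Stab2 -0.16 to 0.16, Clec4g -0.27 to 0.11, Fcgr2b -0.24 to 0.0051 and Oit3 -0.15 to 0.19. The order of the DMSO mice in Kupffer genes held in all 7 other processings tried, with DMSO replicate 1 highest for 12 of 12. DMSO replicate 3 was lowest for 9 of 12 (quantile scaling) to 12 of 12. Not all of the 7 could have changed these counts. The probe read for each of the 12 genes was well above background on all 6 arrays, so the other filters left its values unchanged. The authors' values repeat median scaling. In both of these, 76.0% of all genes put DMSO replicate 1 highest as well, and 72.4% put DMSO replicate 3 lowest.

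The class difference of the bile duct genes, 0.09 as reported, was -0.0051 with median scaling and in the authors' table, 0.39 with the slide row and 0.40 with only probes above background on all 6 arrays, which leaves out Krt7. Without each mouse in turn the class differences ran from -0.15 to 0.45 for Kupffer, 0.062 to 0.32 for stellate, -0.0064 to 0.23 for endothelial and -0.057 to 0.24 for bile duct genes. They were below 0 for Kupffer genes without DMSO replicate 2 or 3, for endothelial genes without DMSO replicate 3, and for bile duct genes without CBZ replicate 1 or DMSO replicate 2. The range over the DMSO mice was 0.31 for stellate and 0.91 for endothelial genes with median scaling, 0.30 and 0.91 in the authors' table, and 0.22 for stellate genes with the filter on all 6 arrays. With a DMSO mouse left out it was 0.26 (without DMSO replicate 1) to 1.20 for Kupffer, 0.025 to 0.13 for stellate, 0.23 to 0.47 for endothelial and 0.28 to 0.59 for bile duct genes. Without DMSO replicate 1, a choice made after seeing the data, 1 of 12 Kupffer genes in place of 5 had a DMSO range over 1, and 5 in place of 12 one larger than the CBZ range. Over all genes the calls, 8 higher and 1 lower as reported, were 59 and 44 with normexp, 44 and 45 with median scaling and in the authors' table, 63 and 71 with the intensity trend and robust eBayes, 23 and 7 with the filter on all 6 arrays, and 2 and 2 with the slide row, and quantile scaling gave 3 higher. Without a filter limma called 0 higher and 0 lower, with 1061 and 542 at an unadjusted p under 0.05, and leaving out each mouse gave 0 to 16 higher and 0 to 5 lower.

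Replicate numbers did not pair the mice: deviations of same-numbered CBZ and DMSO mice correlated at -0.24, 0.016 and 0.18 across probes. With the replicate number as a block 6 genes were higher and 1 lower, and 0 markers were called. Signal over background limits Hgf and Krt7, not well above background on every array, and the untested Des, Sox9 and Epcam, and 3 mice a group limit every difference.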
